A study of Homo sapiens with 3 samples.

Results

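The genes described here are 47 genes of homologous recombination and of the DNA damage checkpoint, chosen by name. All 47 were among the 14949 genes with expression values, so no gene of the list was lost. They comprise 8 checkpoint sensors, kinases and fork protection factors, 7 genes that mark chromatin at breaks, 7 genes of end resection and its helicases, 5 genes of the BRCA complexes, 7 of strand exchange, 10 Fanconi anaemia genes and 3 genes of the single-strand DNA binding complex. RNA sequencing had been performed on 3 libraries of MIAPaCa-2, a long-established line of human pancreatic cancer cells. The sh-CTL library came from untreated cells carrying a control short hairpin RNA. The sh-METTL3 library came from untreated cells in which a stably expressed hairpin targets METTL3, the catalytic subunit of the N6-methyladenosine RNA methyltransferase. The sh-CTL + PLK1i library came from the control hairpin cells after 24 h with 80 nM NMS-P937, a small molecule that inhibits polo-like kinase 1 (PLK1). Every group carries a hairpin, and the sources used here do not say whether each line is a clone or a pool, or what drives the hairpin. Below, these 3 libraries are called the control, the knockdown and the inhibitor library. The comparisons ask how losing METTL3, or blocking PLK1, alters the expression of these genes.

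Homologous recombination repairs a DNA double-strand break by copying the sister chromatid, and it is used in the S and G2 phases of the cell cycle. A break is first bound and trimmed to single-strand DNA, which RPA coats and which, with the help of BRCA2, is then paired with the intact copy. In parallel, the kinases ATM and ATR signal through CHEK2 and CHEK1 to hold the cell cycle, and the Fanconi anaemia proteins handle crosslinks between DNA strands. Many of these genes are transcribed most strongly around S phase. Recombination matters in pancreatic cancer because inherited loss of BRCA2, PALB2 or ATM raises the risk of this disease.

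Each group held 1 library, so the data give no spread between replicates and no test of the conditions, and no p-value was computed. Differences are given as log2 changes of the normalized count against sh-CTL. A normalized count is the number of reads of a gene divided by the library's size factor, and 1 was added to it before the log2. Each change carries an exact Clopper-Pearson 95% interval of the ratio of reads between a pair of libraries. The interval covers counting error only and compares libraries, not conditions. Members are called lower or higher at a change of at least 1.2-fold, which is 0.263 on the log2 scale, and a change is said to exceed counting error where its interval does not contain 0. Both comparisons use the same sh-CTL library, so an odd value in that library would enter both.

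The reads in listed genes came to between 37449337 and 47727490 per library. METTL3 stood at 41.9% of its sh-CTL normalized count in the knockdown and at 98.7% with the inhibitor, as the labels imply. PLK1 itself stood at 64.9% in the knockdown and at 106% under the inhibitor, which acts on the protein. Of the epithelial markers, KRT8, KRT18 and KRT19 were listed and KRT7, EPCAM and CDH1 were not, although the labels call the cells epithelial. None of 5 acinar and none of 4 endocrine pancreas markers was listed. The summed level of the listed epithelial markers ranged from 3222 to 4192 CPM (reads scaled to an equal library total), and that of the mesenchymal markers VIM and ZEB1 from 4336 to 5696. The other mesenchymal markers, FN1 and CDH2, were not listed. Of 4 leukocyte markers CD68 and LYZ were listed, summing to 42.8 CPM in the control, 78 in the knockdown and 62.7 with the inhibitor. Of 5 fibroblast and endothelial markers only COL1A1 was listed, at 0.908, 0.128 and 0.754 CPM in the same order. In the knockdown VIM and ZEB1 went opposite ways, with log2 changes of -0.40 (-0.41 to -0.39) and 0.25 (0.18 to 0.32). In bulk RNA, fewer cells of one kind, or in one phase of the cell cycle, and less RNA per cell cannot be told apart.

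The promoters of the 5 members called lower in the PLK1i library are shown. Each run extends from 250 bases before to 50 after a RefSeq transcription start of the GRCh38.p14 assembly, printed 5′ to 3′ on the strand of the gene. Capitals mark matches to 3 short motifs known from cell cycle genes. These are an E2F-type site (TTTCCCGC, TTTCGCGC, TTTGCCGC or TTTGGCGC), the cell cycle homology region or CHR (TTTGAA) and the CCAAT box (CCAAT). Both strands were searched, and a match on the opposite strand appears as the reverse complement. For ATM and FANCC, which have 2 starts in the table, the first is shown.
H2AX, chr11:119095416-119095715, minus strand: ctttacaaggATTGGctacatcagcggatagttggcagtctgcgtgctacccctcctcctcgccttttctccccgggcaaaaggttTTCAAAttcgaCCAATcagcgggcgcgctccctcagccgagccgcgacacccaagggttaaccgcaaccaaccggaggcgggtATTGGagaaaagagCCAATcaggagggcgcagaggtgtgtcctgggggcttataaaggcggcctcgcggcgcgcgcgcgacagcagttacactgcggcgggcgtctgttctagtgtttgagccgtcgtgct
ATM, chr11:108222817-108223116, plus strand: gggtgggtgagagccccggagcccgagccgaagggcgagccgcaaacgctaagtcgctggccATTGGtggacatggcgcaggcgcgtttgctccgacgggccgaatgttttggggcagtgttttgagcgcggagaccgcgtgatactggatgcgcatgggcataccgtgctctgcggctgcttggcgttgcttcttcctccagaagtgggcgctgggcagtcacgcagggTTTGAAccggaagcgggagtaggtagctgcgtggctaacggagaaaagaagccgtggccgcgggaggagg
TOPBP1, chr3:133661892-133662191, minus strand: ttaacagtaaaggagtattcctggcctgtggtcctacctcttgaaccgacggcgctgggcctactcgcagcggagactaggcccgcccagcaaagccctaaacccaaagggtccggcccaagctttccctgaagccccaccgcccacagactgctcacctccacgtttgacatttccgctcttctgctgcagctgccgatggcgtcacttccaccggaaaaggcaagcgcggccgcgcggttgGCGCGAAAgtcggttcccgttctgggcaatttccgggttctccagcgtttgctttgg
BARD1, chr2:214809634-214809933, minus strand: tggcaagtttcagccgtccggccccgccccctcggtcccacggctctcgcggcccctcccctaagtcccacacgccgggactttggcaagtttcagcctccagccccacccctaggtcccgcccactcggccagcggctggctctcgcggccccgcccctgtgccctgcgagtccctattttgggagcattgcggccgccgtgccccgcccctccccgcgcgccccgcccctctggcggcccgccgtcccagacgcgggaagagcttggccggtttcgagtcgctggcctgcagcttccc
FANCC, chr9:95317660-95317959, minus strand: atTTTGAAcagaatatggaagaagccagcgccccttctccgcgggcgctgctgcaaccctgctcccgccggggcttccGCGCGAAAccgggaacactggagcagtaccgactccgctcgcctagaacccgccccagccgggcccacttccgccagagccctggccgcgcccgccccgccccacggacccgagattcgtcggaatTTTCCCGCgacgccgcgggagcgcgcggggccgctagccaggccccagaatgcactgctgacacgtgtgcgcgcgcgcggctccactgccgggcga

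The H2AX promoter held 4 CCAAT boxes and 1 CHR, that of ATM 1 CCAAT box and 1 CHR, that of TOPBP1 1 E2F-type site and that of FANCC 2 E2F-type sites and 1 CHR. No match lay in the BARD1 window. At the second start, which is not shown, ATM had 2 CCAAT boxes and no CHR, and FANCC had no match. Promoters were available for 41 of the 47 members. An E2F-type site occurred in 8 of the 41 (19.5%), namely CLSPN, EXO1, FANCA, FANCC, FANCD2, TIPIN, TOPBP1 and XRCC2, against 6.75% of 10379 genes of the table with a promoter. The CHR occurred in 5 (12.2%), against 13.4%, and the CCAAT box in 22 (53.7%), against 43.1%. These are matches of letters and not measured binding, and the list was chosen for function, so the shares are descriptive.

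The members were well expressed in all 3 libraries. The lowest read count was 365, for FANCF in the control, and the highest 17579, for PARP1 in the knockdown. The mean normalized count had a median of 2066 over the members and of 905.7 over the genes of the table. Their transcripts were longer, with a median of 4733 bases against 2915, and their median GC content was 42.8% against 48.8%. Together the members took 0.338% of all reads in the control, 0.339% in the knockdown and 0.316% with the inhibitor. Per kilobase, H2AX was the most abundant member in the control, at a level of 3974 normalized counts per kilobase. The order of the other members depends on the length used. With the annotated main transcript PARP1 followed at 3654 and RPA1 at 2165, and FANCF was lowest at 129, whereas with the union of all exons RPA1 followed at 1911 and FANCL was lowest at 26.1.

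In the METTL3 knockdown the members, as a group, lay where the other genes did. Their median log2 change in the knockdown was 0.0048, against 0.0013 over the genes of the table and -0.011 over the 10782 genes whose mean normalized count was 200 or more. Only 2 members were called lower, RBBP8 and RPA3 (4.26%), where 18.2% of the genes of the table and 14.6% of those at a mean of 200 or more were. Another 3 were called higher, BRIP1, FANCF and FANCL (6.38%), against 19.1% and 12.3%. Thus a smaller share of the members than of genes at large passed the fold in either direction. Changes beyond counting error were seen in 9 members downward (19.1%), against 28.2% of the table and 33.5% of the genes at a mean of 200 or more, and in 12 upward (25.5%), against 27.1% and 29.7%. The other 26 stayed within it. No member reached 2-fold in this comparison, where 2.94% of the table was lower and 3.42% higher by that much.

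PLK1 inhibition went with lower counts for many of the members, by small amounts. The median log2 change with the inhibitor was -0.068, against 0.0024 over the genes of the table and 0.0047 over those at a mean of 200 or more. H2AX, ATM, TOPBP1, BARD1 and FANCC were called lower (10.6% of members), against 14.4% of the table and 8.37% of the genes at a mean of 200 or more, so the share past the fold was near the background. None was called higher, against 13.2% and 7.39%. Counting error was exceeded downward by 22 members (46.8%), against 22.8% of the table and 26.6% of the better expressed genes, and upward by 6 (12.8%), against 23.1% and 27.8%. In total 31 of 47 had a change below 0 and 16 above. No member reached 2-fold, a change that 1.13% of the table showed downward and 1.39% upward.

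**Figure D1:**
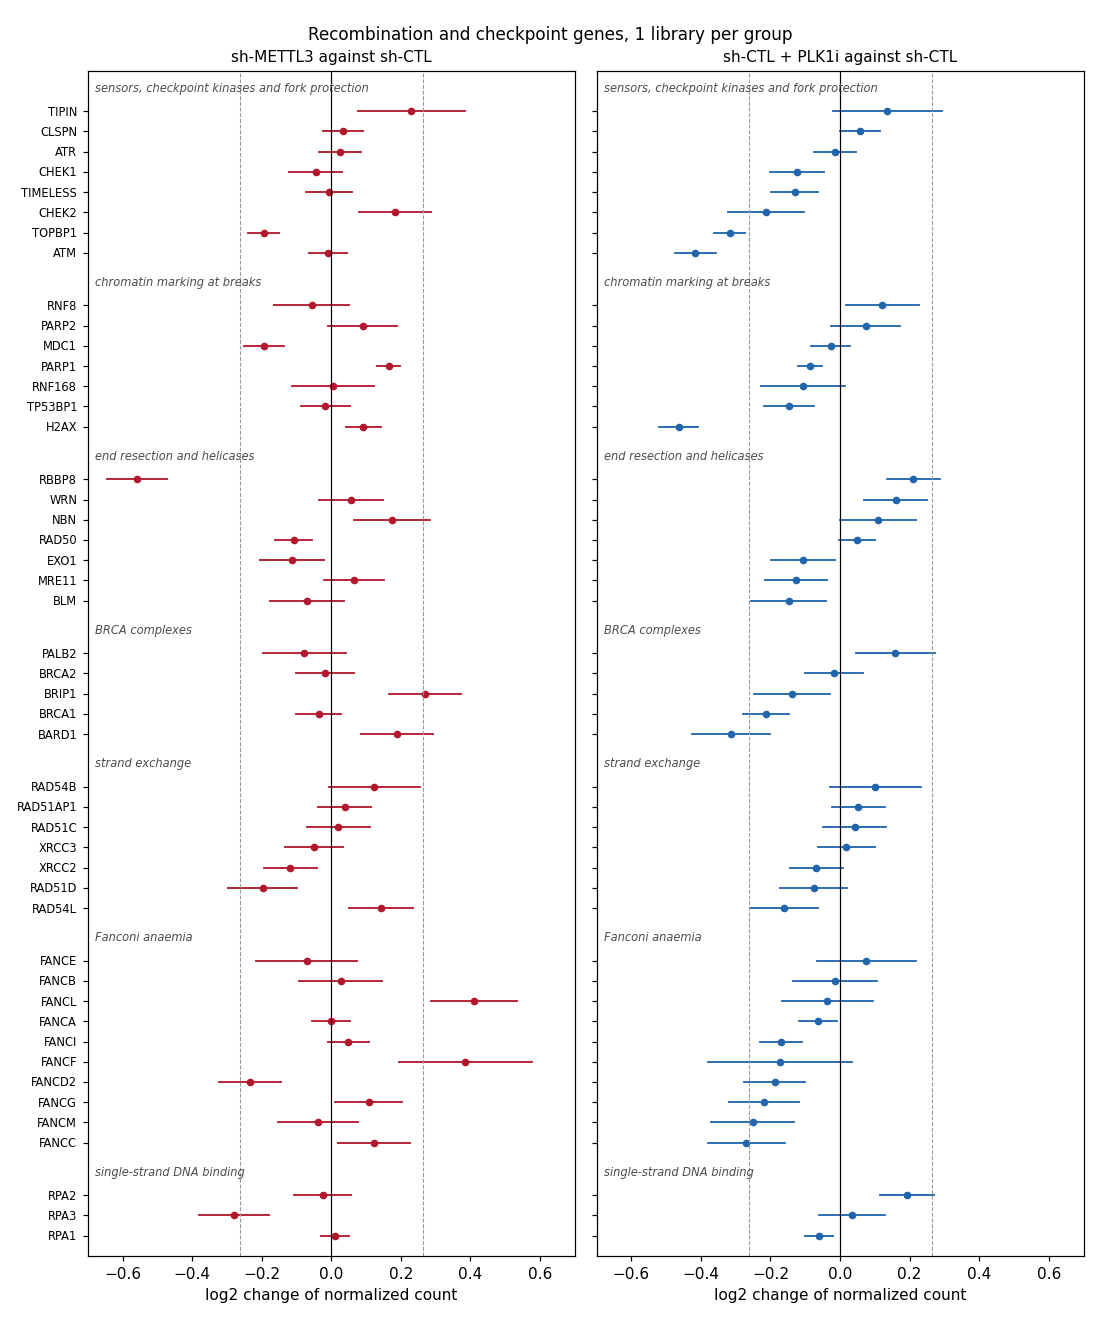
Log2 change of the normalized count of each of the 47 members against sh-CTL, grouped by role, in the knockdown on the left and sh-CTL + PLK1i on the right (1 library per group). Points are changes, bars are exact 95% counting intervals and dashed lines mark a 1.2-fold change. H2AX and ATM are lowest on the right, at -0.46 and -0.42, and RBBP8 is lowest on the left, at -0.56.

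**Figure D2:**
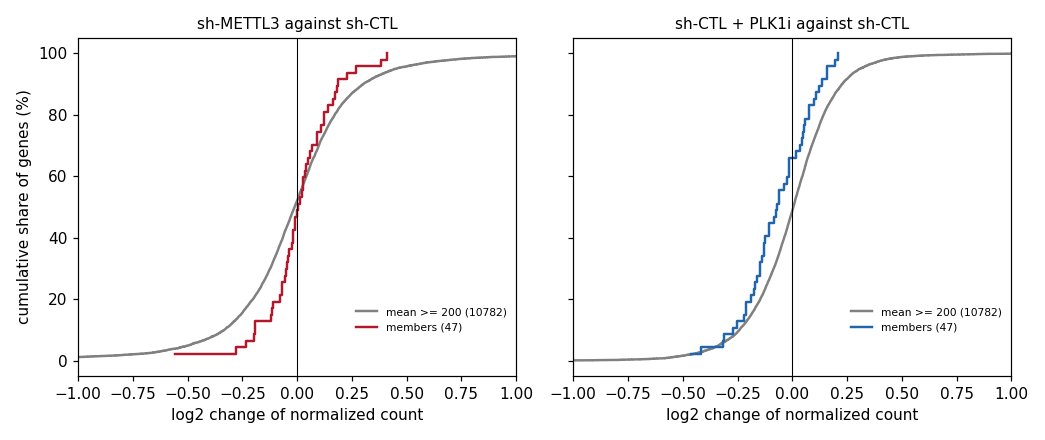
Cumulative share of genes (%) by log2 change against sh-CTL for the 47 members (colored steps) and for the 10782 genes whose mean normalized count was 200 or more (grey), with sh-METTL3 on the left and sh-CTL + PLK1i on the right. On the left the member curve is steeper than the grey one around a shared median near 0, and on the right it lies to the left of the grey one over most of its range, with a median of -0.068 against 0.0047.

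Among the sensors, kinases and fork factors, the damage kinases divided under PLK1 inhibition. ATM, the kinase that responds to double-strand breaks (GRCh37 chromosome 11, 108093771 to 108239829), had normalized counts of 5596 in the control, 5559 in the knockdown and 4193 with the inhibitor. Only the inhibitor library was low, with a log2 change of -0.42 (interval -0.48 to -0.36). ATR, which responds to single-strand DNA at stalled forks, was level at 4628, 4711 and 4585, and its change under the inhibitor of -0.014 (-0.074 to 0.047) lay within counting error. TOPBP1, the activator of ATR (chromosome 3, 133317019 to 133381224), was highest in the control at 9129 and lower in both other libraries, at 7982 and 7326. Its log2 changes were -0.19 (-0.24 to -0.15) in the knockdown and -0.32 (-0.36 to -0.27) with the inhibitor.

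The effector kinases showed smaller differences. CHEK2, the target of ATM, had 1530 in the control, 1737 in the knockdown and 1320 with the inhibitor, so it was high in the knockdown and low with the inhibitor. The log2 changes were 0.18 (0.081 to 0.29) and -0.21 (-0.32 to -0.10). CHEK1, the target of ATR, had 2964, 2874 and 2721, with a change of -0.12 (-0.20 to -0.046) under the inhibitor and one within counting error in the knockdown. TIPIN, which with TIMELESS protects the replication fork, was above sh-CTL in both libraries, at 669, 785 and 736 in the same order. Only its change in the knockdown, 0.23 (0.076 to 0.39), exceeded counting error. TIMELESS itself was at -0.13 (-0.20 to -0.063) under the inhibitor. Per kilobase, TIPIN stood at 0.515 of TIMELESS in the control, 0.607 in the knockdown and 0.620 with the inhibitor. Such a ratio depends on the transcript length taken for each gene, but its change between libraries does not. The remaining factor, CLSPN, carries the signal from ATR to CHEK1, and its change of 0.057 under the inhibitor had an interval whose lower bound was 0 to 2 decimals. Over the 8 genes of this role the median was 0.0090 in the knockdown and -0.13 with the inhibitor. With the inhibitor 5 were lower and 1 higher beyond counting error, against 22.8% and 23.1% of the genes of the table.

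Of the genes that mark chromatin, H2AX moved most under the inhibitor. H2AX encodes the histone variant that ATM phosphorylates around a break (chromosome 11, 118964584 to 118966175, a gene with 1 exon). Its normalized counts were 6327 in the control, 6747 in the knockdown and 4588 with the inhibitor. The inhibitor library was the lowest and the knockdown library the highest, with changes of -0.46 (-0.52 to -0.41) and 0.093 (0.042 to 0.14). H2AX RNA exists with and without a poly(A) tail, and the kit named in the labels selects polyadenylated RNA. For other libraries the study left out the oligo-dT step of that kit, and whether this holds here is not stated, so it is not known whether transcripts without a tail were counted.

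MDC1, which binds phosphorylated H2AX, was low only in the knockdown, at 5306, 4638 and 5209, a change of -0.19 (-0.25 to -0.14) there. RNF8, the ubiquitin ligase recruited by MDC1, had 1496, 1439 and 1627, and its change under the inhibitor was 0.12 (0.016 to 0.23). TP53BP1, which restrains resection, changed by -0.15 (-0.22 to -0.076) under the inhibitor, and 28.8% of its exon bases overlap TUBGCP4 on the opposite strand. PARP1, which adds poly(ADP-ribose) at breaks, changed by 0.16 (0.13 to 0.20) in the knockdown and by -0.086 (-0.12 to -0.051) with the inhibitor. Neither RNF168 nor PARP2 exceeded counting error in either comparison. The medians of the 7 genes were 0.0048 and -0.086.

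The member with the largest change in the knockdown belongs to end resection. RBBP8 (CtIP), which starts the trimming of a break (chromosome 18, 20378224 to 20606451), had 2759 in the control, 1872 in the knockdown and 3192 with the inhibitor. The knockdown library was the lowest and the inhibitor library the highest, so this gene marked the lower end of the members in one comparison and the upper end in the other. The changes were -0.56 (-0.65 to -0.47) and 0.21 (0.13 to 0.29).

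The subunits of the nuclease that works with RBBP8 differed among themselves. RAD50 had the same order of libraries as RBBP8, at 6183, 5738 and 6397, with -0.11 (-0.16 to -0.055) in the knockdown and 0.049 (-0.0025 to 0.10) with the inhibitor, which lay within counting error. MRE11 had 2227, 2331 and 2039, with -0.13 (-0.22 to -0.038) under the inhibitor. NBN had 1384, 1562 and 1492, with 0.17 (0.066 to 0.28) in the knockdown. The proportions of the subunits therefore differed between libraries, with MRE11 at 0.436 of RAD50 per kilobase in the control, 0.491 in the knockdown and 0.385 with the inhibitor. The RAD50 values are uncertain, because 76.9% of its exon bases overlap a gene known only by the identifier ENSG00000283782 on the same strand.

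WRN, a RecQ helicase, was highest with the inhibitor, at 1961, 2041 and 2192, a change of 0.16 (0.070 to 0.25). BLM, the related helicase, and EXO1, the long-range nuclease, went the other way under the inhibitor, at -0.15 (-0.25 to -0.041) and -0.11 (-0.20 to -0.015). Thus the 7 genes of resection had 3 lower and 2 higher beyond counting error under the inhibitor, with a median of 0.049. In the knockdown they had 3 lower and 1 higher, with a median of -0.069. Of the genes of the table, 22.8% were lower and 23.1% higher under the inhibitor, and 28.2% and 27.1% in the knockdown.

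The BRCA complexes also differed by subunit. BRCA1 had 4056 in the control, 3954 in the knockdown and 3498 with the inhibitor, the inhibitor library being the low one at -0.21 (-0.28 to -0.15). BARD1, its partner in a ubiquitin ligase (chromosome 2, 215590370 to 215674407), had 1493, 1701 and 1201. It was high in the knockdown, at 0.19 (0.085 to 0.29), and low with the inhibitor, at -0.31 (-0.43 to -0.20). Per kilobase, BARD1 stood at 0.476 of BRCA1 in the control, 0.557 in the knockdown and 0.444 with the inhibitor.

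BRCA2, a mediator of strand exchange, was level across the libraries at 2441, 2412 and 2413, with changes of -0.017 in both comparisons (-0.10 to 0.067 in the knockdown). PALB2, the bridge from BRCA1 to BRCA2, had 1254, 1188 and 1399 and was highest with the inhibitor, at 0.16 (0.045 to 0.27). BRIP1, a helicase bound to BRCA1 (chromosome 17, 59756500 to 59940920), had 1473, 1774 and 1338. It was called higher in the knockdown at 0.27 (0.17 to 0.37), just past the fold, and was at -0.14 (-0.25 to -0.029) with the inhibitor. The medians of the 5 genes were -0.017 and -0.14.

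The strand exchange genes lay mostly within counting error. The 7 genes are RAD51C, RAD51D, XRCC2 and XRCC3, whose products form complexes that assist strand exchange, the cofactor RAD51AP1, and the translocases RAD54L and RAD54B. Under the inhibitor 6 of the 7 lay within counting error, and only RAD54L exceeded it, at -0.16 (-0.26 to -0.064). Of the 14949 genes of the table, 8085 lay within it there. In the knockdown 4 of the 7 lay within it, 2 were lower and 1 was higher, and 6691 genes of the table lay within it. In the knockdown RAD51D was lowest, with 1834 in the control, 1600 in the knockdown and 1740 with the inhibitor, a change of -0.20 (-0.30 to -0.098). The medians were 0.021 and 0.019. Reads of XRCC3 and RAD54B are uncertain, since 76.7% of the XRCC3 exon bases overlap KLC1 on the opposite strand and 66% of those of RAD54B overlap FSBP on the same strand.

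The Fanconi anaemia genes, here only those with FANC symbols, were the role with the most uniform direction under the inhibitor. Of the 10 genes, 9 had a change below 0, 6 were lower beyond counting error and 0 were higher, with a median of -0.17. Over the table, 7389 of 14949 genes lay below 0, and 22.8% of its genes, or 26.6% of those at a mean of 200 or more, were lower beyond counting error. The uniform direction depends on how the role was drawn, since other Fanconi genes are counted under other roles. Of those, BRCA1 and BRIP1 were lower and PALB2 higher beyond counting error with the inhibitor, and BRCA2, RAD51C and XRCC2 lay within it. FANCC, a subunit of the core ubiquitin ligase complex (chromosome 9, 97861336 to 98189078), had 1503 in the control, 1637 in the knockdown and 1247 with the inhibitor. The inhibitor library was the lowest, at -0.27 (-0.38 to -0.16). FANCM, the translocase that anchors the core complex to DNA, followed with 1300.2, 1265 and 1093, at -0.25 (-0.37 to -0.13). FANCD2 and FANCI, the pair that the core complex ubiquitinates, were both low with the inhibitor, at -0.19 (-0.28 to -0.10) and -0.17 (-0.23 to -0.11). The core subunits FANCG, at -0.22 (-0.32 to -0.12), and FANCA, at -0.063 (-0.12 to -0.0088), were the others past counting error, and 19.6% of the FANCA exon bases overlap ZNF276 on the opposite strand. FANCE alone was above 0, at 0.076 (-0.066 to 0.22).

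In the knockdown the same pair parted. FANCD2 had 2359 in the control, 2006 in the knockdown and 2071 with the inhibitor, so sh-CTL was the highest. FANCI had 4859, 5028 and 4318, with sh-METTL3 the highest. The changes in the knockdown were -0.23 (-0.32 to -0.15) for FANCD2 and 0.049 (-0.0091 to 0.11) for FANCI, and the ratio of FANCI to FANCD2 per kilobase went from 2.22 in the control to 2.7 in the knockdown, with 2.25 with the inhibitor.

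FANCL and FANCF gave the highest changes of the knockdown. FANCL, the catalytic subunit of the core complex (chromosome 2, 58386378 to 58468545), had 992 in the control, 1318 in the knockdown and 968 with the inhibitor, so only the knockdown library was high, at 0.41 (0.29 to 0.53). FANCF, an adaptor of the same complex (chromosome 11, 22644079 to 22647369), had 426, 556 and 378, at 0.39 (0.20 to 0.58). FANCF had the fewest reads of the members and hence the widest interval, and its change under the inhibitor, -0.17 (-0.38 to 0.034), lay within counting error. Over the 10 genes the knockdown gave 1 lower and 4 higher beyond counting error, with a median of 0.038. Of the genes of the table, 28.2% were lower and 27.1% higher beyond counting error there.

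RPA, the complex that coats single-strand DNA, has 3 subunits, and their changes differed. In the knockdown only the change of RPA3 exceeded counting error. RPA1, the large subunit, had 10495 in the control, 10579 in the knockdown and 10066 with the inhibitor and was slightly lower with the inhibitor, at -0.060 (-0.10 to -0.020). RPA2, the subunit that is phosphorylated after damage, had 2614, 2569 and 2988 and was high only with the inhibitor, at 0.19 (0.11 to 0.27). RPA3, the small subunit (chromosome 7, 7676149 to 7758238), had 1831, 1507 and 1874 and was low only in the knockdown, at -0.28 (-0.38 to -0.18). Per kilobase the ratio of RPA2 to RPA1 was 0.762, 0.743 and 0.908, and that of RPA3 to RPA1 was 0.419, 0.342 and 0.447, in the same order of libraries. At the RNA level the ratio of RPA3 to RPA1 was thus lowest in the knockdown, and that of RPA2 to RPA1 highest with the inhibitor.

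In the knockdown, the genes that lie near some members were shifted as well. Genes on chromosome 7 had a median change of -0.25 in the knockdown (632 genes whose mean normalized count was 50 or more) and of 0.0083 with the inhibitor. The members on that chromosome are RPA3 and XRCC2. The neighbours of a gene are here the 24 genes around it in order of position, among those whose mean normalized count was 50 or more. Those of RPA3 had a median of -0.37 in the knockdown, below RPA3 itself, so that RPA3 lay 0.094 above its neighbours. XRCC2, at -0.12, likewise lay 0.056 above its own neighbours, whose median was -0.17.

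RBBP8 differed from the median of its neighbours. Chromosome 18 had a median of -0.13 in the knockdown and the 24 neighbours of RBBP8 one of -0.096, and RBBP8 remained 0.46 below them. These neighbours span 12785477 to 23971649 of chromosome 18, so their median may miss a shift confined to genes closer to RBBP8. FANCD2 lay further below its neighbours than below 0, at -0.34, since their median was 0.11. FANCC, at 0.12, lay 0.23 below neighbours whose median was 0.35. Measured against the neighbours, the members called lower in the knockdown were RBBP8 and FANCD2, and those called higher were BRIP1, FANCF and FANCL, at 0.35, 0.45 and 0.39. The share of all genes past the fold on this measure is not given here, so these calls stand without a background. Under the inhibitor the neighbours moved little, and H2AX, ATM, TOPBP1, BARD1 and FANCC lay between 0.27 and 0.43 below theirs. The reason for the regional shifts in the knockdown was not tested.

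**Figure D3:**
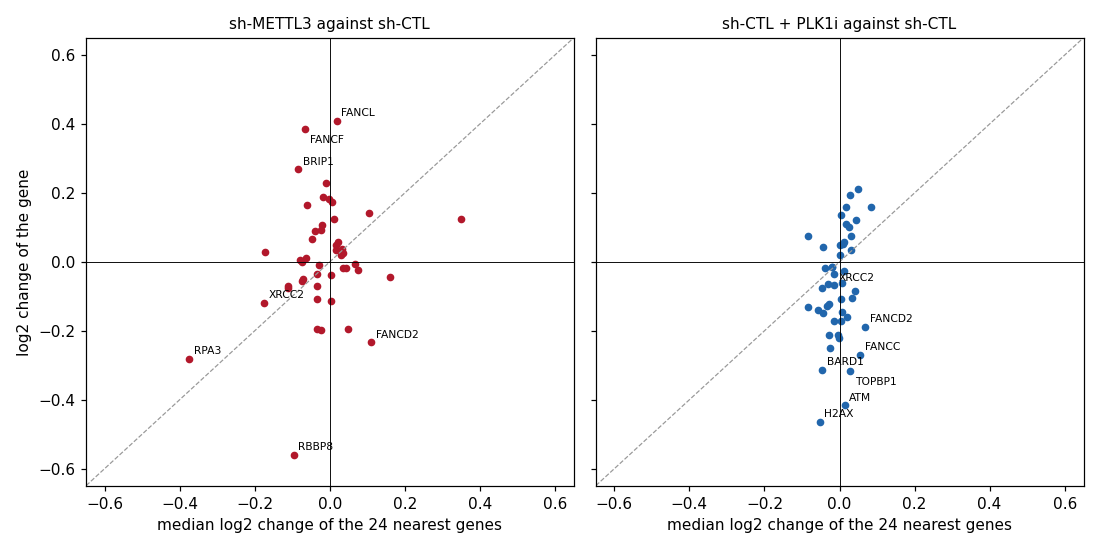
Log2 change of each member against sh-CTL (vertical) and the median log2 change of its 24 neighbours (horizontal), with sh-METTL3 on the left and sh-CTL + PLK1i on the right. Neighbours were taken in order of position among genes whose mean normalized count was 50 or more. The dashed line marks equal values. RPA3 sits near that line at a neighbour median of -0.37, whereas RBBP8, FANCL, FANCF and BRIP1 on the left and H2AX and ATM on the right lie far from it.

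Several members share a promoter region with a gene on the other strand, and some pairs had like changes and others did not. A listed gene on the other strand starts within 1000 bases of 16 members, and the pairs given here were chosen after their values were seen. Changes close to each other under the inhibitor were those of MRE11 and ANKRD49 (starts 94 bases apart), at -0.13 and -0.14, and of TIPIN and MAP2K1 (91 bases), at 0.14 and 0.16. In the knockdown the same pairs were at 0.066 and -0.11 and at 0.23 and -0.13. ATM and NPAT, a coactivator of histone transcription whose start lies 406 bases away, changed by -0.42 and -0.13 under the inhibitor and by -0.0097 and 0.047 in the knockdown. CHEK2 and HSCB, 383 bases apart, had opposite signs under the inhibitor, at -0.21 and 0.22, and the same sign in the knockdown, at 0.18 and 0.066. The start of MDC1 lies 12 bases from that of TUBB, which encodes a tubulin, and the pair was at -0.027 and -0.41 under the inhibitor and at -0.19 and 0.048 in the knockdown.

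Genes related to the members by function gave a point of comparison. A further 41 listed genes of recombination, Fanconi repair and checkpoint signalling had medians of -0.037 in the knockdown and -0.013 with the inhibitor. Under the inhibitor 9 of the 41 were lower and 7 higher beyond counting error, where 22.8% and 23.1% of the genes of the table were. Of the 47 members, 22 were lower and 6 higher, and the difference between the sets was not tested. In the knockdown 12 of the 41 were lower and 8 higher, against 28.2% and 27.1% of the table. The largest changes of the 41 genes under the inhibitor were those of RMI2, a partner of BLM, at -0.73 (-0.91 to -0.56), and of SWI5, a recombination mediator, at 0.40 (0.24 to 0.56). In the knockdown they were those of FAAP24, a partner of FANCM, at -0.62 (-0.94 to -0.31), and of FAAP100, a partner of FANCL, at -0.48 (-0.60 to -0.36), both below 0 while FANCL was above it.

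The 12 genes of end joining, the competing route of break repair, had a median of 0.051 in the knockdown and -0.12 with the inhibitor. With the inhibitor 7 were lower and 2 higher beyond counting error, against 22.8% and 23.1% of the genes of the table. PRKDC, the catalytic subunit of the DNA-dependent protein kinase, was the lowest of them at -0.36 (-0.38 to -0.34). In the knockdown the lowest was DCLRE1C (Artemis), at -0.53 (-0.70 to -0.36). Base and single-strand break repair (19 genes) had medians of 0.021 and -0.0036, mismatch repair (7 genes) 0.099 and -0.058, and nucleotide excision repair (19 genes) -0.050 and 0.020. ERCC6, which couples excision repair to transcription, was the lowest of these lists in the knockdown at -0.68 (-0.83 to -0.54), and NTHL1, a base excision glycosylase, the lowest with the inhibitor at -0.41 (-0.57 to -0.25).

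The S phase markers had a median below 0 with the inhibitor and one near 0 in the knockdown. The 30 S phase markers had a median of -0.18 with the inhibitor, with 22 lower and 5 higher beyond counting error, and E2F1, the transcription factor of S phase entry, was the lowest at -0.40 (-0.48 to -0.32). The 24 markers of G2 and M had a median of 0.068, with 8 lower and 12 higher, and the largest change among them was that of TOP2A at -0.55 (-0.57 to -0.53). In the knockdown the S phase markers had a median of -0.0042 with 12 lower and 11 higher beyond counting error, and the G2 and M markers one of 0.089, with 5 lower and 15 higher. Of the genes of the table, 22.8% were lower and 23.1% higher beyond counting error with the inhibitor, and 28.2% and 27.1% in the knockdown. The part of cell cycle phase in the changes of the members was not tested.

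**Figure D4:**
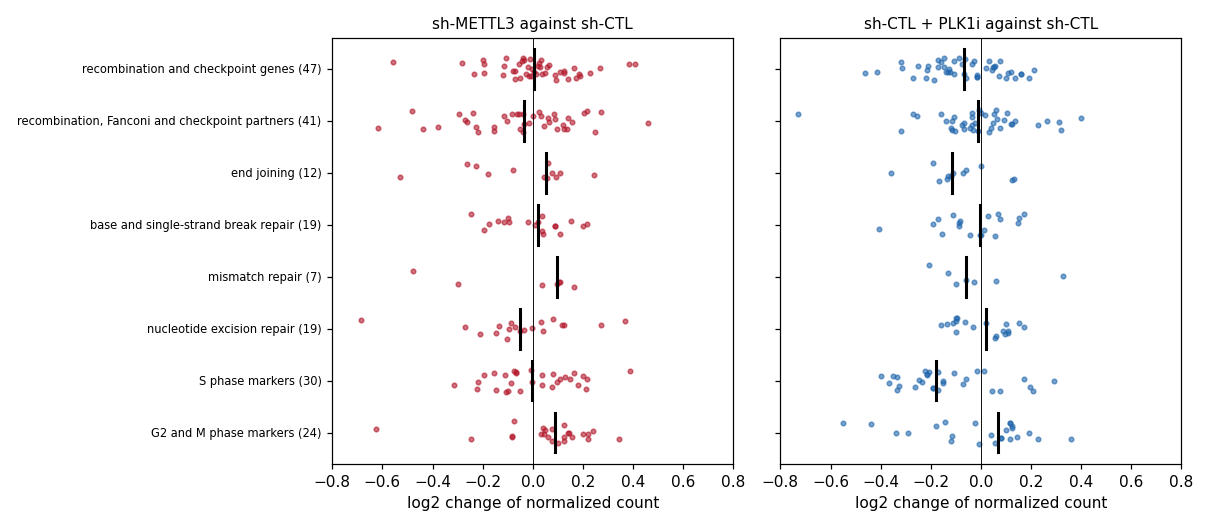
Log2 change against sh-CTL of every listed gene (points) of the members, of 5 other repair lists and of S phase and G2 and M phase markers, with list medians as black bars and the number of genes in parentheses. In sh-CTL + PLK1i (right) the S phase markers have the lowest median, -0.18, and the members lie at -0.068. In sh-METTL3 (left) the medians of the lists lie between -0.050 and 0.099.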

How the data were processed

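Per the labels, ISOGEN was used for RNA extraction and a TruSeq stranded mRNA kit for the libraries. The submitters' processing notes name FastQC 0.11.9, STAR 2.7.10, RSEM 1.3.3 and hg19, with no role or order. The authors deposited log2 values for 14949 genes with a minimum of 2, and how genes were filtered and the log2 taken is not given in the sources used here. Undoing the log2 and subtracting 4 gave values whose steps were worth 1.17 (sh-CTL), 0.927 (sh-METTL3) and 0.921 (sh-CTL + PLK1i) per read, equal to size factors of 0.858, 1.08 and 1.09. Of the values under 2000 reads, 100% fell within 0.1 of a whole number. Larger values were rounded to whole reads. Each column was matched to a sample through the abbreviation in its name, and 0 columns were left unused.

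The whole reads gave normalized counts, log2 changes with a pseudocount of 1 and exact 95% intervals. With 1 library per group, no count model was fitted. Because the reads were amplified and carry no molecular identifiers, they may repeat a molecule, and the intervals describe counting error alone. Positions, overlaps and transcript lengths came from GENCODE 44 mapped to GRCh37 and were found for 14858 genes. Promoters came from RefSeq on GRCh38.p14, and no position was carried between the builds. The symbols of 5 members carried an identifier in the table and were matched without it. Whether counting used strand is not given, so reads of overlapping genes are uncertain. Python 3.11.15, numpy 2.4.6, pandas 2.3.3, scipy 1.17.1 and matplotlib 3.10.9 were used, and the scripts were tested on simulated data.

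The members and the gene lists were chosen with earlier results of these data known. Values in all libraries are given for ATM, ATR, CHEK1, CHEK2, H2AX, BRCA1, BRCA2, PALB2, FANCD2, FANCI, RPA1, RPA2, RPA3, RAD50, MRE11 and NBN and for the 6 lowest and 6 highest members of each comparison. METTL3 and PLK1 served as the check of the labels. From the other lists at most 2 genes per list and comparison, those with the largest change, are named. Members named beyond this rule were chosen after their values were seen, as were the partner genes with starts near those of members. Alternatives were other pseudocounts, scalings, filters and folds, and changes relative to the chromosome, to 24 neighbours or to a trend with GC content and length.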

Additional observations from a re-analysis of the deposited data

How the results depend on the processing

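No paired analysis was possible because each group has 1 library. Replicates could not be left out for the same reason. The member medians kept their sign under each alternative run, from 0.0048 to 0.033 in sh-METTL3 and from -0.082 to -0.047 with PLK1i. The count of members called lower in sh-METTL3 went from 2 to 1 with upper-quartile factors and to 1 after the chromosome median was subtracted, RPA3 being the member lost. Relative to its 24 neighbours, RPA3 turned from -0.28 to 0.094. Subtracting neighbours left 2 lower in number, with FANCD2 in place of RPA3. At folds of 1.5 and of 2, 0 members were called lower in sh-METTL3, 0 higher in sh-METTL3 and 0 lower with PLK1i. Other settings gave 4 to 6 members lower with PLK1i. Within 0.05 below the 1.2-fold threshold lay 2 members in sh-METTL3 and 3 with PLK1i. Some of the 1034 recomputed single values could move little or not at all. Filters at a mean of at least 50 or 200 keep every member, since the lowest member mean was 453.1. Median-of-ratios factors gave almost the deposited scaling. Of the 1034 values, 1014 moved by less than the counting error, 19 moved by more, all relative to the chromosome or the neighbours, and 1 past the 1.2-fold threshold, that of RPA3, changed sign. Below that threshold, FANCC in sh-METTL3 went from 0.12 to -0.23 relative to its neighbours, and XRCC2 from -0.12 to 0.056 relative to its neighbours and 0.13 relative to its chromosome. Counting error limited single changes to a median of about 0.091 on either side, and no spread between cultures was measured.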
